A study of Mus musculus with 16 samples.

Results

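A set of 435 genes had lower RNA levels after 4 h of ERK induction and higher levels again after 2 h of MEK inhibitor, in mouse pluripotent cells carrying an inducible c-RAF construct. They were chosen from the 11924 genes that passed 2 count rules, so they make up 3.65% of those genes. Features holding over 1% of all counts (8 features) and genes with under 160 counts in total were set aside first. Levels were taken as CPM, counts scaled to a common library total, of what remained in each library, and the mean of log2(CPM + 1) was formed over the 4 libraries of a group. A gene was kept where this mean was at least 0.5 lower at 4 h than before induction and at least 0.5 higher after MEK inhibitor than at 4 h. Of 446 genes that met both thresholds, 11 were left out by symbol, among them Nanog, Klf4, Prdm14 and Lefty1. The differences of 4h from 0h and of rev from 4h therefore chose the genes, and they are given below as a description with no test. The mirror pattern, higher at 4 h and lower again after MEK inhibitor by the same thresholds, was met by 361 genes, or 3.03%.

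Ribosome-depleted total RNA was sequenced from cells of the line labelled CRAFR26 and of the type labelled RSC, derived from targeted mouse embryonic stem cells and kept in a medium with LIF, the Wnt secretion inhibitor IWP2 and the MEK inhibitor PD03. In all 4 groups the MEK inhibitor was replaced for 48 h by 250 nM of the FGF receptor inhibitor PD17, so the uninduced cells carry this treatment too. Group 0h had no tamoxifen, groups 2h and 4h had 250 nM 4-hydroxytamoxifen for 2 h and 4 h, and group rev had it for 4 h with a MEK inhibitor for a further 2 h. Every group had 4 libraries, 2 from clone 4 and 2 from clone 8, each clone being 1 targeted line. The dose of MEK inhibitor at rev is not given in the sources used here. A group induced for 6 h without MEK inhibitor was not analysed here, so the MEK inhibitor and the later time cannot be told apart. Nothing in the labels says whether the 2 libraries of a clone came from separate cultures, so p-values measure the spread between these libraries, which may be technical.

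ERK is the last kinase of the cascade that runs from FGF receptors through RAF and MEK, and it acts on transcription within minutes to hours. In mouse pluripotent cells its main natural input is FGF4, which the cells secrete themselves, and its activity moves them out of the naive state and towards differentiation. Inhibitors of MEK are used in culture media for this reason, and their removal lowers part of the naive transcription factor network.

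The genes with the largest differences were of many kinds. Of the genes with at least 50 mean counts at 0h and the same direction in all 4 pairs of same-numbered libraries, the 15 with the largest smaller-of-both difference were Spic, Ism2, Atg16l2, Mex3b, Fgf4, Elf3, Rgma, Rhob, A4galt, Pnpla3, Tmem191c, Zcchc24, Radil, Ttl and Phlpp2. Spic and Elf3 encode ETS-family transcription factors, Fgf4 encodes the FGF ligand of early embryo cells, Rhob a small GTPase, Mex3b an RNA-binding protein, and Rgma a membrane-anchored co-receptor for BMP signals. Per kilobase of exon, the highest levels at 0h were those of Fgf4 with 189 CPM per kilobase, the snoRNA gene Gm25835 with 111, the autophagy kinase gene Ulk1 with 111, the neuronal-type tubulin gene Tubb3 with 78.0 and the junction protein gene Jam2 with 68.7.

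Promoter sequences are shown for 4 of these genes because the results below turn on them: the ligand gene Fgf4, both ETS-family genes and the autophagy kinase gene Ulk1. The sequences are from RefSeq on GRCm38.p6 and run 5′ to 3′ on the gene's strand, from 250 bases before the annotated start site to 50 bases after it. Capitals mark matches to the motif letters searched on both strands, and no marked matches overlap.
Fgf4, chr7:144861136-144861435, plus strand: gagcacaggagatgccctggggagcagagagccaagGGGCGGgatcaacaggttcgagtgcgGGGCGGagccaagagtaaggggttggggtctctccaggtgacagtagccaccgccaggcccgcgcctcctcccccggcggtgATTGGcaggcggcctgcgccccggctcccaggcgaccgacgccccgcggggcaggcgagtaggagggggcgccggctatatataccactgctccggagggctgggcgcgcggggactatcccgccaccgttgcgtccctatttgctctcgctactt
Spic, chr10:88682974-88683273, minus strand: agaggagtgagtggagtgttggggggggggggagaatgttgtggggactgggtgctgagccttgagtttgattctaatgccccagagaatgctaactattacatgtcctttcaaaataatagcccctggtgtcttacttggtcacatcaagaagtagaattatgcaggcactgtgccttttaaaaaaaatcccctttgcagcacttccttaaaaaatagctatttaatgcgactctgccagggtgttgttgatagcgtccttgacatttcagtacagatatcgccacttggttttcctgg
Elf3, chr1:135258423-135258722, minus strand: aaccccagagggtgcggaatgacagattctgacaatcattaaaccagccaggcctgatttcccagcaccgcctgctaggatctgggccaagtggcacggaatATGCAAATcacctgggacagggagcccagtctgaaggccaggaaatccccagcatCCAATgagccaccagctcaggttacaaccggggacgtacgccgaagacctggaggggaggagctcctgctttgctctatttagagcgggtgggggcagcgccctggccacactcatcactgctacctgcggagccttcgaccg
Ulk1, chr5:110810032-110810331, minus strand: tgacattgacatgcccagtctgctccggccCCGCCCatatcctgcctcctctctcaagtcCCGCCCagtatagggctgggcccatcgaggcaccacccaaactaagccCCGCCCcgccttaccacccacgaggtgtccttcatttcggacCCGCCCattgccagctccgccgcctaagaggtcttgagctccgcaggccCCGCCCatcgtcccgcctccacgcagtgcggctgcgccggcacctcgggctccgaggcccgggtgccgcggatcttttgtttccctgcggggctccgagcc
The Fgf4 window held 2 GC boxes (GGGCGG), whose first bases lay 214 and 188 bases before the start site, and 1 CCAAT box on the reverse strand. In the Elf3 window there were an octamer (ATGCAAAT) and a CCAAT box, 148 and 93 bases before the start. The Ulk1 window held 5 GC boxes, all on the reverse strand, and the Spic window held none of the letters searched, which says only that they are absent from these 300 bases. GC content was 69.7% for Fgf4, 45.0% for Spic, 59.0% for Elf3 and 68.0% for Ulk1. The other letters searched were CACGTG (E-box), CCGGAAG (ETS), GCGTGGGCG (EGR), TGAGTCA (AP-1), TGACGTCA (CRE), TTCNNNGAA (STAT), TCAAGGTCA (ESRRB), CTTTGAT (TCF), TATAAA and GCCACACCC (KLF), along with the NRF1 and YY1 motifs. Over the promoters of 9038 genes that passed the count rules and had an entry, 71.0% held a GC box, 44.1% a CCAAT box and 1.67% an octamer. Only 317 of the 435 genes had a promoter entry, which is under 80%, so a comparison of motif shares over the whole set is void.

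Library totals ran from 4313599 to 10444126 counts, and the 8 dominant features held 46.7% to 78.9% of them, the most in library 1 of clone 8 at rev. The limit set by 3 counts lay between 0.55 and 2.30 CPM, and it covers counting error only. All 435 genes passed the low-count filter of the test, and their median total over the 16 libraries was 642 counts (160 to 37867). A mean of at least 50 counts at 0h was reached by 187 of them, so single-library values of the others are imprecise. On the third principal component of the most variable genes, with 8.57% of the variance, all 0h and 4h libraries scored above 0 and all 2h and rev libraries below 0. Each side holds whole groups and the labels name no batch, so this split and the differences of 2h and rev from the other groups cannot be told apart. The pluripotency markers Pou5f1, Sox2, Zfp42, Esrrb, Dppa5a, Utf1, Lin28a and Tdgf1 summed to 2602 to 3501 CPM in every library. The primitive endoderm list, which held no member, summed to 12.9 to 15.4 CPM at 0h, 8.73 to 13 at 4h and 16.3 to 25.5 at rev. Its 0h and 4h ranges overlapped slightly, and its rev range lay above both. The two-cell-like list ran from 1.35 to 80.1 CPM over all libraries, and the formative and primed list from 214.5 to 291 CPM at 0h and from 190.1 to 439 at 4h. The part of these lists in the results below was not tested. Of the fibroblast or feeder markers, 4 of 6 had at most 3 counts in any library.

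Summed over the 435 genes, the share of the counts outside the dominant features was 1.61%, 1.48%, 1.62% and 1.61% in the 0h libraries, in the order clone 4 library 1, clone 4 library 2, clone 8 library 1 and clone 8 library 2. This order is kept for all values given per library below. At 2h the shares were 1.35%, 1.40%, 1.46% and 1.44%. At 4h they were 0.648% and 0.704% in clone 4 and 1.22% and 1.16% in clone 8, and at rev 1.53%, 1.61%, 1.59% and 1.63%. The 4h libraries were the lowest, both clone 4 libraries lay far below both clone 8 libraries there, and the 0h and rev libraries overlapped.

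**Figure D1:**
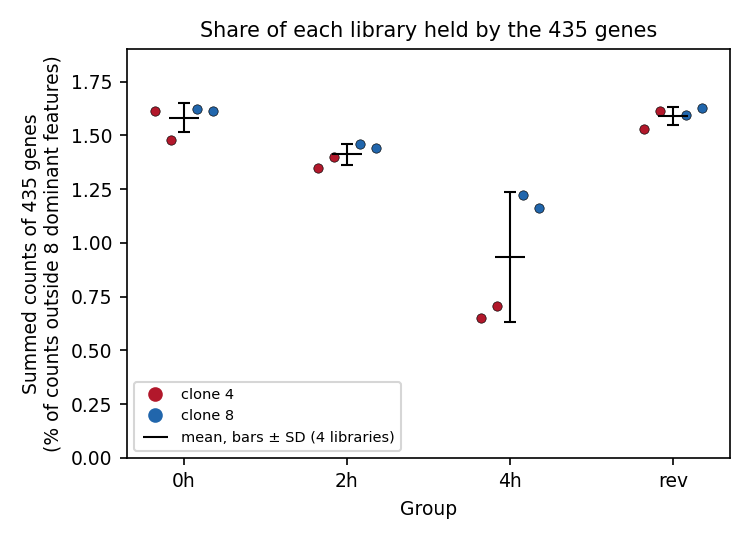
Summed counts of the 435 genes as a percentage of each library's counts outside 8 dominant features (vertical axis), by group (horizontal axis). Points are libraries in red for clone 4 and blue for clone 8, and lines and bars are mean ± SD of 4 libraries. Clone 4 lies at 0.648% and 0.704% at 4h, clone 8 at 1.22% and 1.16%, and every 0h and rev library lies at or above 1.48%.

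Over the 435 genes the median difference in mean log2(CPM + 1) was -0.79 for 4h against 0h (lowest -1.84) and 0.72 for rev against 4h (highest 2.27), against -0.07 and -0.00392 over all 11924 genes. At rev the median difference from 0h was -0.03 (all genes -0.07). The mean at rev was at least 0.5 above 0h for 19 genes and at least 0.5 below it for 26. Shares over all genes were not computed for the 19 and the 26. Every 4h library lay below every 0h library in 174 genes (8.6% of all genes) and below every rev library in 141 (4.06%). In 85 genes every 4h library lay below every 0h and every rev library, which 1.32% of all genes did. The same direction in all 4 library pairs, down at 4h and up at rev, was found in 233 (5.49% of all genes); the pairs join libraries of 1 clone by number only, which is arbitrary. The edgeR quasi-likelihood test called 193 lower at 4h than at 0h (44.4%; 5.56% of all 12742 tested genes) and 197 higher at rev than at 4h (45.3%; 4.5% of all). For the lists of genes below, the same test called 7.35% of all genes higher at 4h and 5.1% lower at rev than at 4h. At rev against 0h, a sum of both differences, it called 14 higher (5.51% of all genes) and 5 lower (4.94%), the latter Ppp1r16b, Sgo2b, Prr15l, Mycl and A4galt. These counts follow from how the genes were chosen, and nothing is read from them.

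At the thresholds, the genes just inside were little different from those just outside. For the difference at 4h, the genes just inside were Arrdc4 at -0.5014, Hhip at -0.5016, Ssc5d, Cdkn2b and C530008M17Rik at -0.5032, and those just outside were Plcg2 at -0.4983, Clybl, Cavin4, Kif26a and Cox7a1 at -0.4937. For the difference at rev, Irak2 at 0.5005, Arl4a, Snx21, Fbxo25 and 2900026A02Rik at 0.5043 lay inside, and Atg13 at 0.4983, Klhl5, Praf2, Zyg11b and Prrt4 at 0.4969 lay outside. Membership also moved with single libraries: leaving out clone 8 library 1 at 4h raised the number of genes from 435 to 746, of which 405 were shared, and the lowest number was 324, without clone 4 library 2 at 4h. Both thresholds were met in each clone alone by 79 genes (0.663% of all genes).

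**Figure D2:**
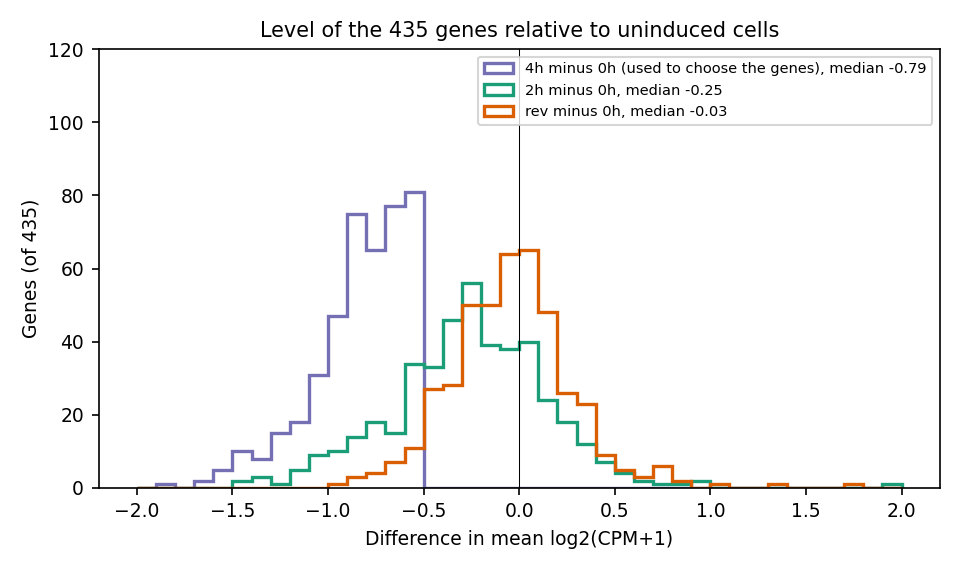
Number of the 435 genes (vertical axis) by their difference in mean log2(CPM + 1) from 0h (horizontal axis), for 4h, 2h and rev. The 4h values end at -0.5 because the genes were chosen there; the 2h values centre on a median of -0.25 and the rev values on -0.03.

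Among the secreted proteins, Fgf4 (chromosome 7, 144847367 to 144865243, plus strand) encodes the FGF that embryonic stem cells make and respond to. It had 709.7, 643, 547 and 522 CPM at 0h, 466, 439, 523 and 499 at 2h, 144, 212, 378 and 353 at 4h and 634, 665, 676 and 719 at rev. Every 4h library lay below every library of the other groups, with clone 4 lowest. At 2h clone 4 was below its 0h libraries, and clone 8 overlapped them. Mean Fgf4 was 605 ± 87.1 CPM (SD, n = 4) before induction against 272 ± 113 CPM (SD, n = 4) at 4h, an edgeR log2 change of -1.13 (SE 0.18), and 1.34 (SE 0.18) from 4h to rev. The difference at 4h was -1.88 in clone 4 and -0.50 in clone 8. In bulk RNA, fewer cells expressing a gene and less RNA per cell cannot be told apart, and this holds for every gene below. Ism2, an isthmin-family secreted protein gene, had 17.4, 9.75, 24.2 and 24.8 CPM at 0h and 1.71, 0.655, 12.5 and 11.9 CPM at 4h, so at 4h it was near the level of 3 counts in clone 4 and well above it in clone 8. Col4a2, a basement membrane collagen gene, had means above 0h at rev, with 36.5, 25.6, 70 and 72.5 CPM at 0h, 18.4, 19, 65.5 and 47.6 at 4h and 54.5, 68.6, 101 and 119 at rev. Fgf2, Bmp7, the hedgehog-binding protein gene Hhip, Sfrp5, Igfbp5 and Scube3 were also members. The 14 secreted and matrix proteins had a median 4h difference of -0.82.

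Receptors and cell-surface ligands made up 25 of the genes assigned a role. Kit (chromosome 5, 75574916 to 75656722, plus strand) encodes the receptor for stem cell factor. Its levels were 335, 292, 433 and 425 CPM at 0h, 237, 229.6, 559 and 553 at 2h, 98, 122, 389 and 394 at 4h and 228, 225, 554 and 547 at rev. Clone 4 and clone 8 never overlapped, and in clone 8 the 4h libraries lay just under the 0h libraries while in clone 4 they held less than any other library. The log2 change at 4h was -1.46 in clone 4 and -0.08 in clone 8, a difference between clones of 1.37 (SE 0.15, edgeR adjusted p = 2.52e-07). Fgfr2, an FGF receptor gene, had 112, 132, 35.1 and 40.3 CPM at 0h, 34.5, 32.1, 29.4 and 17.9 at 4h and 100.4, 109, 17.7 and 19 at rev. Its return at rev was seen in clone 4 alone: the log2 change from 4h to rev was 1.65 in clone 4 and -0.40 in clone 8, and this difference between clones passed the test (edgeR adjusted p = 2.25e-06). The Eph receptor gene Epha4 had 117, 147, 115 and 117 CPM at 0h and 46.1, 38.6, 104 and 104 at 4h, and the ephrin gene Efnb1 8.72, 6.5, 9.84 and 7.75 CPM and 3.76, 5.89, 4.77 and 5.95 CPM. Among the Notch ligands, Jag1 was at 67.6, 60.9, 44.4 and 43 CPM at 0h and 28, 26.8, 45.3 and 43.6 at 4h, and Jag2 at 54, 32.9, 46.1 and 40.7 and 17.1, 24.2, 35.8 and 29.8. In both ligand genes clone 4 was lower at 4h than at 0h. In clone 8 Jag1 had the same level in both groups and Jag2 was somewhat lower.

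Jam2, a tight-junction adhesion protein gene, had 405, 402, 432 and 423 CPM at 0h, 189, 218, 361 and 389 at 4h and 347, 359, 542 and 479 at rev, and its 4h libraries lay below all 0h libraries. Rgma (chromosome 7, 73375509 to 73419899, plus strand) had 19.1, 24.8, 24.5 and 24.4 CPM at 0h, 6.3, 6.08, 11 and 12.6 at 2h, 4.78, 8.51, 16.7 and 12.7 at 4h and 23.8, 20.8, 25.3 and 22.4 at rev. Its 2h and 4h libraries were all below its 0h and rev libraries, so it was one of the genes already low at 2h. Sirpa, which encodes an inhibitory receptor, and Cd47, which encodes the ligand of that receptor, were both members and were named after their values had been seen. Sirpa had 61.1, 40.2, 99.8 and 98.1 CPM at 0h and 8.88, 11.8, 53.8 and 58.3 at 4h. Cd47 had 15.3, 17.5, 23.1 and 28.3 CPM at 0h and 4.44, 5.24, 22 and 19 at 4h, and in clone 8 it differed little. The Wnt receptor gene Fzd10 had 52.9, 45.9, 67.2 and 65.9 CPM at 0h, 16.4, 21.6, 73.5 and 46.8 at 4h and 60.3, 64.4, 86.8 and 86.1 at rev, with no lower level at 4h in library 1 of clone 8. Of the 10 Frizzled genes, 3 were members (Fzd4, Fzd9 and Fzd10). By edgeR, Fzd4 and Fzd2 were called lower and Fzd7 higher at 4h than at 0h, and Fzd8, Fzd9 and Fzd10 higher and Fzd7 lower at rev than at 4h; this list was drawn up after the members had been seen.

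Among intracellular signalling genes, Phlpp1 and Phlpp2 encode the paired phosphatases that remove an activating phosphate from AKT. Phlpp2 had 25.6, 27.6, 40.5 and 39.9 CPM at 0h, 8.88, 9.82, 30.2 and 29.8 at 4h and 27, 33, 43 and 43.5 at rev, and Phlpp1 had 55.6, 47.9, 56.2 and 58.1, 27.7, 22.3, 45.9 and 29.8 and 39.4, 49.6, 40.7 and 48.3 CPM. Both were lowest in clone 4 at 4h. Inpp5d encodes SHIP1, an inositol phosphatase that opposes PI3K signals, and had 249, 242, 61.8 and 64.7 CPM at 0h and 109, 108, 57.8 and 48 at 4h. In mean level over the 4 groups clone 8 was lower (log2 difference -1.72 (SE 0.06), edgeR adjusted p = 1.13e-21). The small GTPase gene Rhob (chromosome 12, 8497661 to 8500009, minus strand) had 26.7, 22.7, 31.8 and 27.5 CPM at 0h, 42.8, 47.9, 31.8 and 28 at 2h, 5.12, 8.51, 23.6 and 19 at 4h and 62.4, 62.7, 32.3 and 43.2 at rev. Clone 4 went from the lowest Rhob levels at 4h to the highest at rev, where every library lay above every 0h library. Rasgef1a, an exchange factor gene for RAS-family GTPases, was at 15.8, 19.9, 18.6 and 19.4 CPM at 0h, 5.46, 5.89, 26 and 19.8 at 4h and 45.5, 37.7, 31.5 and 22.8 at rev, so its lower 4h level was that of clone 4 only. Radil, an effector of RAP GTPases, had 40.3, 37.4, 40.8 and 57.7 CPM at 0h and 11.6, 13.8, 37.1 and 28.2 at 4h. The kinase gene Pim3 and Cish, both STAT target genes, were members of the LIF and STAT3 list, of whose 11 tested genes 3 were called higher and 1 lower at 4h. Pim3 had 116, 97, 94.5 and 95 CPM at 0h and 50.5, 66.8, 92.8 and 69.4 at 4h, and Cish had at most 9.75 CPM in any library.

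Transcription factors and chromatin proteins were the largest class, with 37 genes and a median 4h difference of -0.83. Spic (chromosome 10, 88674772 to 88685015, minus strand) encodes an ETS-family factor and had 34.3, 38.6, 41 and 38.4 CPM at 0h, 45.4, 40.2, 32.2 and 37.2 at 2h, 7.86, 8.51, 20.2 and 23.4 at 4h and 66.4, 83.3, 53.8 and 58.5 at rev. The 2h and 0h libraries overlapped, every 4h library lay below both groups, and every rev library lay above them. Elf3 (chromosome 1, 135253575 to 135258568, minus strand), an epithelial ETS-family gene, had 106, 96.2, 92.5 and 84.9 CPM at 0h, 31.5, 43.2, 35 and 27.7 at 2h, 20.5, 23.6, 52 and 44 at 4h and 95.4, 90.2, 63 and 67 at rev. Unlike Spic it was low at 2h in both clones, and its 2h and 4h libraries overlapped. Foxo3, which encodes a factor that insulin and AKT signals keep out of the nucleus, was at 275, 229, 315 and 306 CPM at 0h and 113, 147, 265 and 266 at 4h, again with clone 4 lower. Foxo6 had at most 11.6 CPM in any library. The MYC-family gene Mycl had 52.3, 46.7, 74.5 and 73.3 CPM at 0h, 7.51, 15.1, 41.6 and 40.5 at 4h and 24.1, 23.8, 46.9 and 51 at rev, so both clones had regained only part of their 0h level at rev. Lmx1b, a LIM-homeobox gene, had 91, 114, 33.7 and 30.6 CPM at 0h, 20.2, 30.1, 21.2 and 24.6 at 4h and 79.8, 80.8, 13.8 and 14.6 at rev, and the clone 8 libraries did not return. Trps1, a zinc-finger repressor gene, was lower at 4h in clone 4, while clone 8 overlapped its 0h libraries, with 83.9, 85.3, 130.4 and 112 CPM at 0h and 31.4, 38.6, 105 and 119 at 4h. The stress factor gene Atf3 and the homeobox gene Gsc had at most 13.9 and 8.18 CPM in any library.

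Neurog1 and Msx2, a proneural and a homeobox factor gene, were singled out after their values had been seen, because with Hoxb9 they went furthest past their 0h level at rev. Neurog1 had 1.09, 2.84, 0.281 and 0 CPM at 0h, 12.6, 9.11, 3.6 and 2.38 at 2h, 0, 0.655, 0.53 and 0 at 4h and 9.57, 7.93, 2.3 and 3.4 at rev. Most 0h and 4h libraries were at or below the level of 3 counts, and the 2h and rev libraries were at or above it. It passed the minimum total only through its 2h and rev counts, so no test is given for it. Msx2 had 3.82, 5.28, 3.65 and 2.33 CPM at 0h, 2.05, 1.96, 1.33 and 3.17 at 4h and 11, 10.4, 13.1 and 9.52 at rev. All rev libraries of both genes lay above all their 4h libraries, and these 2 groups are on different sides of the split on the third component.

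Genes that restrain growth or respond to stress numbered 8 among the members with a role. Cdkn1a (chromosome 17, 29090976 to 29100727, plus strand) encodes the cyclin-dependent kinase inhibitor p21 and had 91.6, 80.4, 71.1 and 81.8 CPM at 0h, 156, 176, 93.5 and 94.5 at 2h, 38.3, 56.3, 59.4 and 57.5 at 4h and 165, 157, 118 and 124 at rev. Its level was thus higher at 2h and at rev than at 0h in all libraries, and lowest at 4h. The 2h level exceeded the mean of the other groups by 0.61 (SE 0.13) on the log2 scale (edgeR adjusted p = 0.00638). Of 19 tested p53 target genes, 5 were called higher and 3 lower at 4h than at 0h, and 9 higher and 1 lower at rev than at 4h. Against 0h, 13 of them were called higher and 0 lower at 2h (9.49% and 7.48% of all genes). At rev 9 were called higher and 0 lower (5.51% and 4.94% of all genes). Cdkn1a was thus high in both groups along with many genes of that list. Both groups lie on the same side of the split on the third component, and these differences cannot be told apart from it. Sesn1, a stress-response regulator of mTORC1, had 43.6, 48.7, 40.2 and 38.4 CPM at 0h, 17.1, 22.3, 29.4 and 29 at 4h and 36.5, 32.2, 45.3 and 58.8 at rev. Ddit4 (REDD1), a further mTORC1 inhibitor gene, had 95.9, 65, 83.5 and 78.3 CPM at 0h, 28.8, 28.7, 56.1 and 51.9 at 2h, 26.6, 36, 49.3 and 38.1 at 4h and 48.4, 42.9, 62.2 and 86.7 at rev, and most of its lower level was present at 2h. The antiproliferative gene Tob1 had 90.5, 94.2, 121 and 134 CPM at 0h and 31.4, 42.6, 71.6 and 82.1 at 4h. Cdkn2b, which encodes p15, was just inside the threshold at 3.42 to 9.99 CPM.

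Autophagy and energy metabolism accounted for 16 genes. Ulk1 (chromosome 5, 110784488 to 110810097, minus strand) encodes the kinase that starts autophagy and had 745, 666, 701 and 763 CPM at 0h, 888, 972, 774 and 716 at 2h, 269, 354, 674 and 671 at 4h and 989.7, 1078, 954 and 849 at rev. In clone 4 the 4h libraries were below all others, whereas in clone 8 they lay under the 0h libraries by little, and every rev library lay above every 0h library. The log2 change at 4h was -1.12 in clone 4 and -0.07 in clone 8, a difference between clones of 1.04 (SE 0.17, edgeR adjusted p = 7.25e-05). Atg16l2 (chromosome 7, 101263034 to 101302251, minus strand), a homologue of the ATG16L1 conjugation factor, had 51.2, 57.3, 42.5 and 29.5 CPM at 0h, 21.9, 28.4, 32.8 and 30.4 at 2h, 15.7, 14.4, 20.2 and 18.2 at 4h and 35.1, 37.2, 43 and 55.8 at rev. Its 4h libraries lay below all other libraries in both clones. Ulk2, the phosphoinositide-binding protein gene Wipi1 and the ATG8-family gene Gabarapl2 were members as well. Of 36 tested core autophagy genes, 2 (Atg16l2 and the non-member Atg4d) were called lower and 2 higher at 4h than at 0h, against 5.56% and 7.35% of all genes, and the list's median log2 change at 4h was 0.01. That list, and the fatty acid list that follows, were drawn up after the members had been seen.

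Cpt1a, Slc25a20 and Mlycd encode the enzyme that loads fatty acids onto carnitine, the carrier that brings them into mitochondria, and the enzyme that removes the inhibitor malonyl-CoA. Cpt1a had 74.1, 52, 133 and 129 CPM at 0h, 20.8, 30.8, 93.9 and 85.7 at 4h and 73.4, 74.8, 113 and 109 at rev. Slc25a20 had 82.9, 79.6, 84.6 and 89.5 CPM at 0h and 44.7, 45.8, 72.4 and 73.8 at 4h, and Mlycd had at most 6.69 CPM in any library. The 3 genes act in successive or linked steps. Each had a lower mean at 4h in both clones, which the choice of the genes favours, so nothing is read from this. Of 19 tested genes of mitochondrial fatty acid oxidation, 3 were called lower and 0 higher at 4h than at 0h, and 3 higher and 0 lower at rev than at 4h. The genes called lower at 4h were Cpt1a, Slc25a20 and Acads, which is no member and was not called higher at rev, while Mlycd missed the threshold at 4h (edgeR adjusted p = 0.0526). Prkaa2, a catalytic subunit gene of the energy sensor AMPK, had 28.3, 26.8, 48.9 and 49.2 CPM at 0h and 7.51, 11.1, 39.8 and 44 at 4h. Hk1, which encodes hexokinase 1, had 128, 139, 98.1 and 105 CPM at 0h, 105, 93.8, 63.1 and 59.4 at 2h, 64.2, 62.2, 57.8 and 58.3 at 4h and 112, 105, 71.4 and 73.5 at rev, and its 4h levels were alike in both clones. Bnip3 and Ndrg1, 2 hypoxia-response genes, had 4h levels of 3.07, 2.62, 3.45 and 3.97 CPM and 10.9, 14.4, 11.7 and 13.9 CPM. Of 21 tested glycolysis and hypoxia genes, 7 (Hk1 and Bnip3 among them) were called lower and 1 higher at 4h, and 4 were called lower and 2 higher at rev than at 4h. Pnpla3, a lipid droplet enzyme gene, had 19.1, 20.7, 22.5 and 17.8 CPM at 0h, 6.63, 4.39, 11.8 and 13 at 2h and 7.86, 3.27, 18.3 and 14.3 at 4h, and it was low at 2h already.

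Of 27 genes of the cytoskeleton, junctions and membrane traffic, Lima1 encodes an actin-binding protein. It had 395, 359, 365 and 350.0 CPM at 0h, 438, 424, 219 and 238 at 2h, 122, 149, 229.7 and 234 at 4h and 389.8, 399, 193 and 184 at rev. Clone 4 returned to its 0h level and clone 8 did not, and clone 8 was low from 2h on. Tubb3 had 159.7, 188, 116 and 119 CPM at 0h, 81.5, 62.5, 144 and 133 at 2h, 79.9, 83.2, 108 and 102 at 4h and 148, 141, 167 and 181 at rev, so clone 4 was low at 2h while clone 8 was not. Tubb3 and Sox1 are also markers of the neural list, whose sum was 79.3 to 204.7 CPM over all libraries. Ttl, which adds tyrosine to alpha-tubulin, had 46.9, 52.4, 34.3 and 40.7 CPM at 0h, 17.1, 18.3, 22.8 and 25.4 at 4h and 40.3, 42.4, 39.2 and 40.5 at rev, with all 4h libraries below all others. Rab11fip1, a recycling-endosome effector gene, was at 122, 114, 116 and 126 CPM at 0h, 59.1, 57, 92 and 87.3 at 4h and 107, 109, 136 and 145 at rev. The semaphorin gene Sema6c was at 37.1, 29.6, 42.5 and 41.9 CPM at 0h, 10.6, 11.1, 18 and 17.6 at 2h and 7.51, 12.4, 29.4 and 23 at 4h.

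Enzymes of glycan synthesis numbered 7. A4galt (chromosome 15, 83226722 to 83251774, minus strand) encodes the galactosyltransferase that makes globo-series glycolipids and had 62.1, 43, 39.4 and 40.7 CPM at 0h, 43.4, 39.5, 25.4 and 29.1 at 2h, 16.1, 11.1, 15.6 and 15.5 at 4h and 33.6, 34.4, 25.3 and 29.3 at rev. All 4h libraries lay below all others, the clones were alike at 4h, and at rev the level was still below every 0h library. St8sia1, which makes the ganglioside GD3, had 21.3, 20.7, 41.6 and 41.5 CPM at 0h and 4.78, 7.2, 25.5 and 21.8 at 4h. The heparan sulphate enzyme gene Hs6st1 had 333, 281, 290.4 and 298 CPM at 0h, 151, 175, 225 and 246 at 4h and 412, 443, 319 and 321 at rev, and Ndst1 and the sulphotransferase genes Chst3 and Chst14 were members. Among 14 tested glycolipid enzyme genes, A4galt, St8sia1 and the non-member St3gal2 were called lower and 1 higher at 4h than at 0h.

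The RNA-binding protein genes were Mex3b, Elavl3 and Nova2, and each had every 4h library below every 0h and rev library. Mex3b (chromosome 7, 82867333 to 82871515, plus strand) had 27.3, 17.5, 27.6 and 28.3 CPM at 0h, 17.9, 24.6, 18.2 and 15.4 at 2h, 8.54, 4.58, 15.1 and 14.7 at 4h and 29.6, 31, 24.6 and 21.4 at rev. Zcchc24, a zinc-knuckle protein gene, had 20.7, 15.4, 26.7 and 21.3 CPM at 0h and 6.15, 6.55, 13.3 and 15.5 at 4h. Among 15 channels and transporters, the potassium-chloride cotransporter gene Slc12a7 had 282, 293, 257 and 250.0 CPM at 0h, 130.5, 149, 223 and 188 at 4h and 278, 302, 259.6 and 247 at rev. Sgo2b, a shugoshin gene, had 31.6, 35.3, 20.2 and 19.4 CPM at 0h, 12.6, 15.5, 8.79 and 9.71 at 2h, 6.49, 7.2, 8.22 and 7.93 at 4h and 16.2, 19.1, 13.8 and 8.5 at rev, so it stayed below 0h throughout. Reads of Sgo2b and its near-identical relative Sgo2a may have been split by the counting, and 26 genes of mitosis held no other member. Tmem191c, a membrane protein gene, has 16.6% of its exons covered by another gene of the same strand, so its counts are uncertain.

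**Figure D3:**
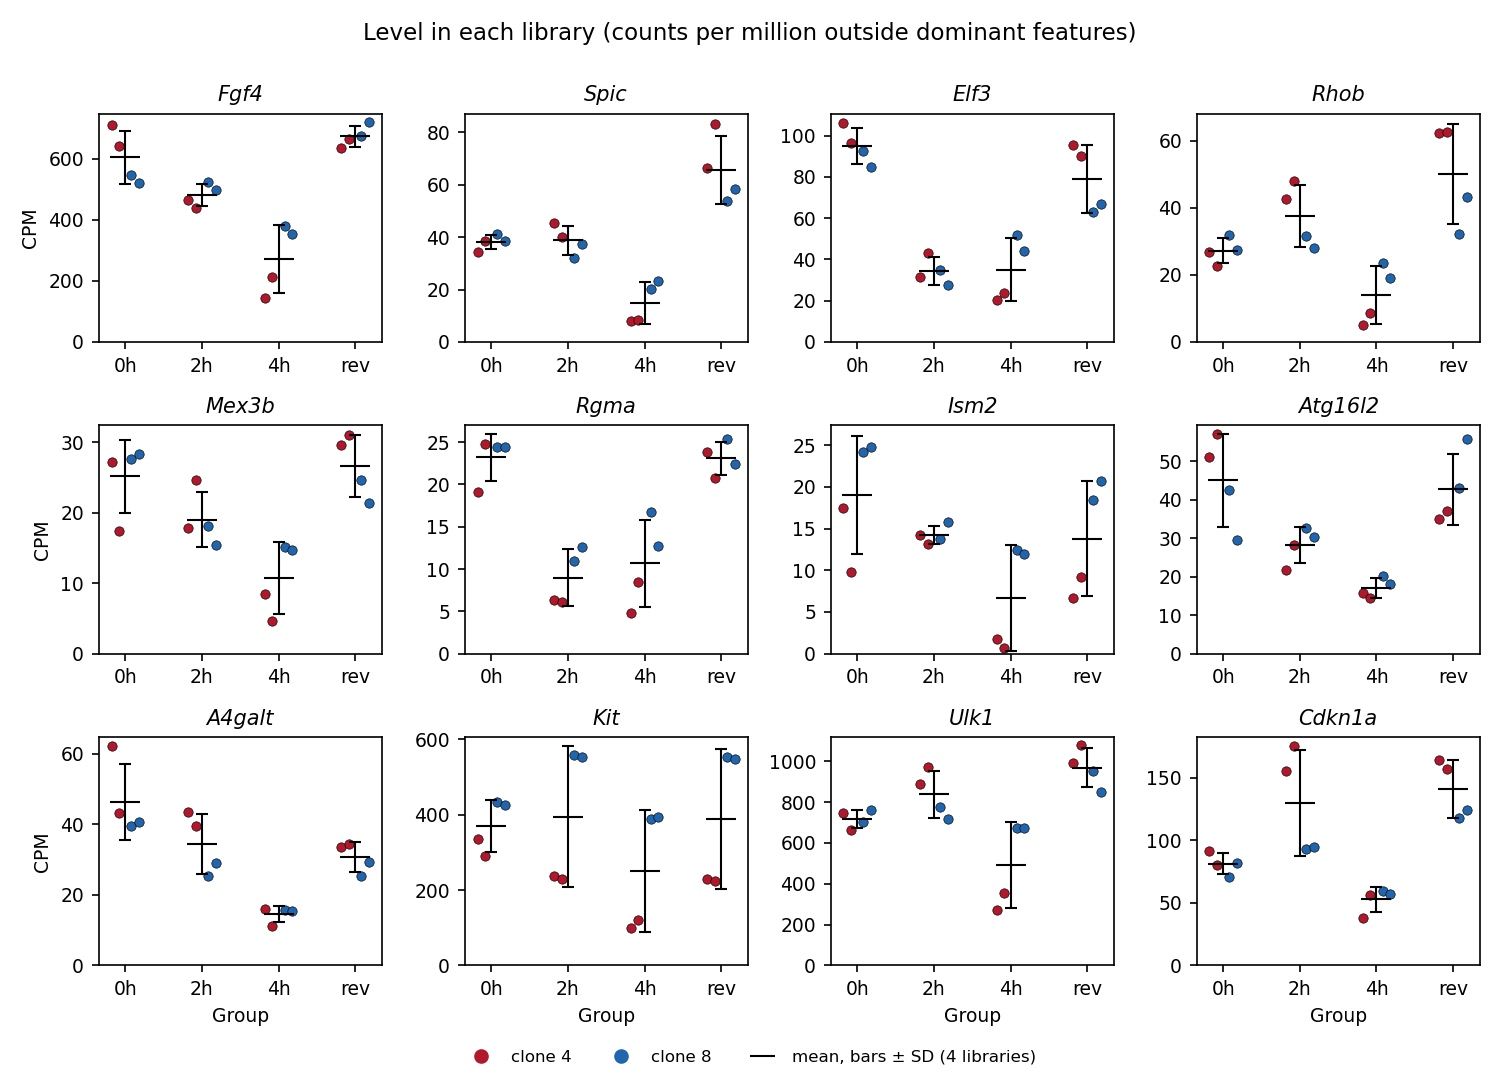
Level of 12 member genes in each library in CPM (vertical axes, each from 0) by group (horizontal axes). Points are libraries in red for clone 4 and blue for clone 8, and lines and bars are mean ± SD of 4 libraries. Fgf4, Spic and Atg16l2 are lowest at 4h in all libraries, Elf3 and Rgma are low at 2h and 4h, Cdkn1a is raised at 2h, and in Kit and Ulk1 the 4h level of clone 8 lies near its 0h level.

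The 2h libraries did not enter either difference that chose the genes, but they did enter the count rules, which sum over all 16 libraries. Some genes with few counts, such as Neurog1, reached the minimum total only with their 2h counts, so for them 2h is not independent of the choice. The contrast of 2h with the mean of the other 3 groups is orthogonal to both differences. With it, edgeR's quasi-likelihood test called 37 of the 435 genes, or 8.51%, at an adjusted p under 0.05, against 8.3% of all 12742 genes tested. This share is near the background. With no filter on low counts the members called were 71, 51 of them higher, against 4.58% of a larger table that holds many genes with few or no counts. Of the 37, 19 were higher at 2h (5.28% of all genes) and 18 were lower (3.02% of all genes). A gene that is at its 0h level at 2h and low at 4h alone lies above this mean, so a higher call is not a rise over 0h. The lower calls were led, among genes with enough counts, by Rgma at -0.96 (SE 0.19, adjusted p = 0.00379), Elf3 at -0.90 (SE 0.18, adjusted p = 0.00531) and Sema6c at -0.87 (SE 0.16, adjusted p = 0.00274). Among genes with a mean of at least 50 counts in their highest group, the higher calls were led by Trps1 at 0.67 (SE 0.17, adjusted p = 0.0175), Rnf130 at 0.63 (SE 0.10, adjusted p = 0.000544) and Cdkn1a. Rnf130, a ubiquitin ligase gene, had 16.9, 15, 38.2 and 31 CPM at 0h, 25.2, 21.3, 43.7 and 49.5 at 2h, 9.22, 11.1, 26.8 and 23.8 at 4h and 17.7, 16.1, 38.4 and 40.1 at rev. Leaving out 1 library lowered the 37 calls to 10 (2h, clone 4 library 2), 18 (2h, clone 8 library 2) and 20 (2h, clone 4 library 1).

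Against 0h, whose libraries entered a difference that chose the genes, the 2h level was at least 0.5 lower for 111 genes (11.3% of all genes) and at least 0.5 higher for 11 (5.46% of all genes). The median share of the 4h difference present at 2h was 0.31, with quartiles at -0.01 and 0.59. The test called 63 lower (14.5%; 7.48% of all genes) and 9 higher (2.07%; 9.49% of all genes). Genes had to be high at 0h to be chosen, which favours lower calls here, so these counts are a description. In 408 of the 435 genes the 2h mean lay above the 4h mean, and 133 were called lower at 4h than at 2h (6.36% of all genes). Genes also had to be low at 4h to be chosen, which favours both of these counts, so nothing is read from them. By their levels in the libraries, Elf3, Rgma, Sema6c, Pnpla3 and Ddit4 were near their 4h level at 2h, and Spic and Foxo3 were near their 0h level. Cpt1a was near its 0h level in clone 4, while in clone 8 its 2h libraries lay between its 0h and 4h libraries. Kit was near its 0h level only as a mean, since the clones moved apart (-0.31 in clone 4 and 0.42 in clone 8, log2).

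The difference between the clones was also not used, since means over both clones chose the genes; it is independent of the choice only where both clones vary and respond alike. They did not: chi-square per degree of freedom between libraries of a clone was 4.04 in clone 8 and 1.77 in clone 4 at rev, and 1.29 and 2.34 at 0h. Choosing on the mean of both clones also favours genes with a large change in the clone that responds more. The clone counts below are therefore a description of these genes, and their excess over all genes is not read as particular to them. The median difference at 4h was -1.05 in clone 4 and -0.54 in clone 8, and that at rev was 1.05 and 0.44. At 2h the clones were close, with medians of -0.24 and -0.27. The 4h difference was larger in clone 4 for 366 genes (56.4% of all genes), and the rev difference for 342 (53% of all genes). Lower levels at 4h in both clones were found for 419 genes, and higher levels at rev in both for 380. The thresholds on the mean of both clones favour this, so nothing is read from these counts. A larger response of clone 4 was shared by the mirror set, in which 337 of the 361 genes had the larger 4h difference in clone 4, with medians of 1.54 and 0.50.

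By edgeR's interaction test, the change at 4h against 0h differed between the clones for 77 genes, or 17.7%, against 5.72% of all genes. In all 77 it was less negative in clone 8, a direction called for 2.03% of all genes; the other direction, with no member, was called for 3.69%. The largest differences were taken among genes with a mean of at least 50 counts in their highest group. They were those of Ism2 at 2.23 (SE 0.57, adjusted p = 0.013), the arginine methyltransferase gene Prmt8 at 2.11 (SE 0.52, adjusted p = 0.0101) and Rasgef1a at 1.96 (SE 0.40, adjusted p = 0.00152). In clone 4 at 4h the libraries had 5 and 1 counts for Ism2, 5 and 7 for Prmt8 and 16 and 9 for Rasgef1a. The sizes of these differences are therefore imprecise. By role, 12 of 25 receptors and adhesion proteins, 10 of 27 cytoskeletal and traffic proteins, 10 of 37 transcription factors, 8 of 26 signalling proteins, 4 of 15 channels and transporters, 3 of 16 autophagy and energy genes, 2 of 14 secreted proteins, 1 of 8 growth restraint genes, 1 of 7 glycan enzymes and 0 of 3 RNA-binding proteins were among the 77. These roles were assigned after the members had been seen and were not compared with each other. Fgf4 was called with a difference of 1.39 (SE 0.17, adjusted p = 6.81e-07), Elf3 with 1.32 (SE 0.23, adjusted p = 0.000226) and Epha4 with 1.44 (SE 0.18, adjusted p = 1.86e-06). A4galt, Atg16l2, Mex3b, Zcchc24 and Hk1 were not called, with differences from 0.25 to 0.89. Their adjusted p ran from 0.071 to 0.525 by edgeR, which does not show that the clones changed alike in them. The 77 fell to 25 without clone 4 library 1 at 4h (2.16% of all genes) and to 50 without clone 8 library 1 at 0h (3.31% of all genes), so the count depends on those libraries.

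The change at rev against 4h differed between the clones for 137 genes, or 31.5%, against 13.2% of all genes. In 131 it was smaller in clone 8 (30.1%; 6.89% of all genes) and in 6 larger (6.3% of all genes). The smaller rises in clone 8 were led by Slco4c1, an organic anion transporter gene, at -3.01 (SE 0.28, adjusted p = 4.62e-09), Rasgef1a at -2.73 (SE 0.36, adjusted p = 2.74e-06) and the planar polarity gene Prickle2 at -2.67 (SE 0.51, adjusted p = 0.000414). Slco4c1 had 37.6, 39, 41 and 45.3 CPM at 0h, 10.9, 10.5, 39.8 and 39.3 at 4h and 43.2, 52.5, 26.9 and 19.4 at rev, so in clone 8 it was near its 0h level at 4h and lower at rev. The larger rises in clone 8 included those of the hyaluronan-binding protein gene Cemip at 3.99 (SE 1.05, adjusted p = 0.00936) and of Ankrd35 at 1.17 (SE 0.31, adjusted p = 0.0105). Cemip was at most 2.03 CPM in clone 4 and reached 0.29, 0.496, 17.7 and 24.1 CPM at rev. Both clone contrasts share the 4h libraries, so their calls are not separate evidence, and 56 genes were called in both. The share of all genes called in both was not computed, so nothing is read from the 56. Without clone 4 library 1 at 4h the 137 fell to 63 (5.59% of all genes).

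**Figure D4:**
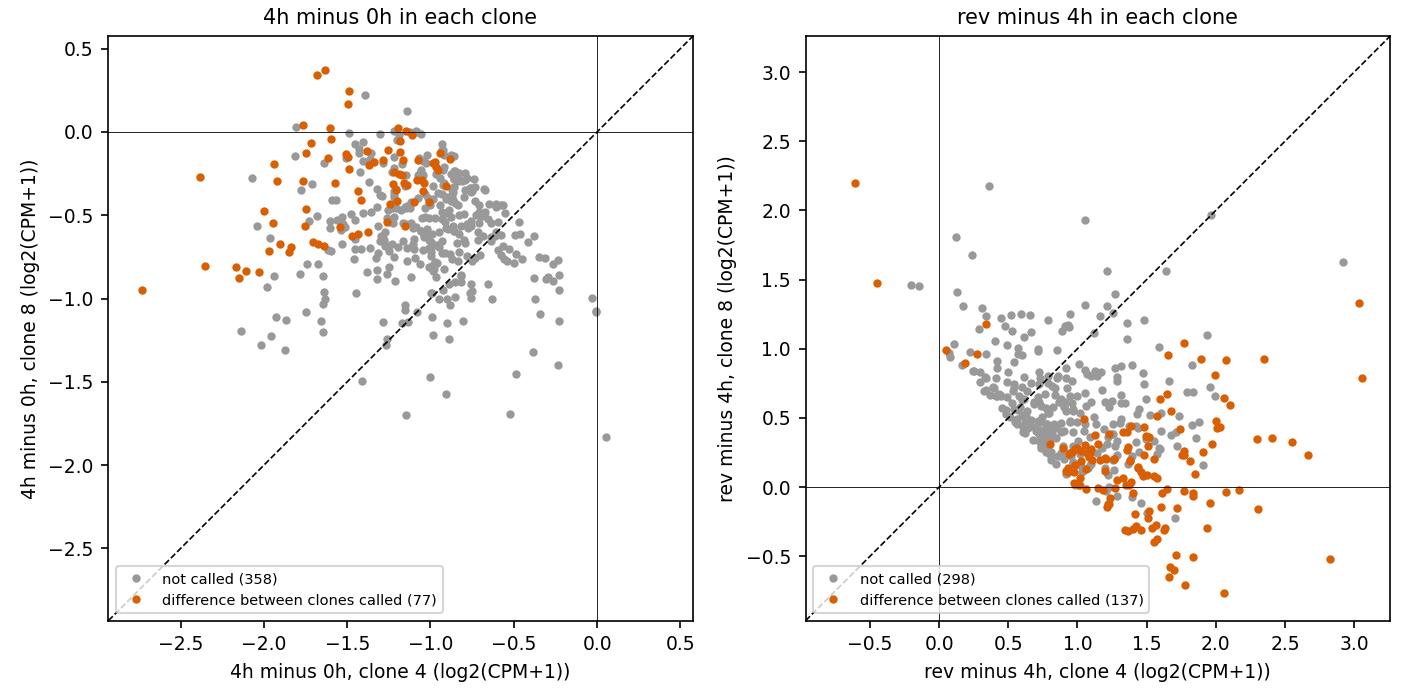
Difference in mean log2(CPM + 1) in clone 8 (vertical axis) against that in clone 4 (horizontal axis) for each of the 435 genes, for 4h minus 0h on the left and rev minus 4h on the right; the dashed line marks equality. Orange points are the 77 and 137 genes whose change differed between clones by edgeR; most lie on the side of a larger change in clone 4. The empty corner towards the origin follows from the thresholds on the mean of both clones.

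At 2h against 0h the clones differed for 72 genes (16.6%; 7.94% of all genes), 29 with a more positive change in clone 8 (2.93% of all genes) and 43 with a more negative one (5.01% of all genes). The natriuretic peptide clearance receptor gene Npr3 was at 15.3, 14.2, 44.7 and 44.2 CPM at 0h, 4.31, 2.03, 79.3 and 90.3 at 2h, 4.44, 5.24, 33.7 and 35.3 at 4h and 8.7, 9.42, 76 and 86.1 at rev. It was lower at 2h in clone 4 and higher in clone 8 (difference 3.06 (SE 0.35), adjusted p = 4.23e-07 by edgeR). Prickle2 at -2.21 (SE 0.38), the adaptor subunit gene Ap3b2 at -1.87 (SE 0.33) and Kctd15 at -1.86 (SE 0.31) differed the other way (edgeR adjusted p = 0.000221, 0.000324 and 0.0002). Kctd15 had 27.8, 22.7, 26.7 and 22.9 CPM at 0h and 30.2, 21.6, 7.99 and 6.96 at 2h. This count ranged from 32 without clone 4 library 2 at 0h to 87 without clone 4 library 1 at 0h. It was 33 without clone 4 library 2 at 2h and 41 without clone 8 library 1 at 0h.

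In mean level over the 4 groups the clones differed for 246 genes (56.6%; 43.3% of all genes), 177 higher in clone 8 (40.7%; 21.7% of all genes) and 69 lower (15.9%; 21.6% of all genes). Cemip, Npr3 and Prmt8 were higher in clone 8 by 3.74, 3.06 and 2.00 on the log2 scale, and Fgfr2, Inpp5d and Lmx1b were lower, with differences of -1.78, -1.72 and -1.70. The 4h libraries enter this mean, so a smaller 4h difference in clone 8 adds to a higher level there. Over the 3 clone contrasts of change, 177 genes were called in at least 1 and 258 in none. Shares over all genes were not computed for these counts, so nothing is read from them.

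Gene features that the rule did not use were compared as a description. Of 434 members found in the annotation, 401 were protein-coding (92.4%, against 93.6% of all genes), and 2 were snoRNA genes. Median GC content of each gene's longest transcript was 53.1%, against 49.7% over all genes. The members made up 1.89% of the genes in the lowest of 5 equal groups by GC content and 6.08% of those in the highest. The median difference of all genes at 4h also moved with GC content, from -0.03 in the lowest group to -0.12 in the highest. After the median by GC content was removed from each library, 407 genes met the rule and 387 of the 435 were among them. Exon length had a smaller spread, from 3.23% to 4.11% over 5 equal groups. By chromosome the share of members ran from 2.08% on chromosome 18 to 5.09% on chromosome 6 among chromosomes with any member. Members lay next to each other in 36 pairs, such as Sirpa and Stk35, Prkaa2 and Plpp3, and Nfil3 and Ror2. Exon sequence was shared with a gene on the opposite strand by 114 members, over 30% of the exon length in 3 of them, and with one on the same strand by 38. Values for all genes were not computed for the neighbouring pairs or the shared exons, so nothing is read from these counts. The strand setting of the counting is not given in the sources used here, so reads of such overlapping genes cannot be told apart.

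Lists of related genes were read for how many of their members fell in the set. Of 27 naive-pluripotency-associated genes, 3 were members (Fgf4, Jam2 and Spic). In that list 8 genes were called higher and 3 lower at 4h than at 0h, and 5 higher and 6 lower at rev than at 4h, so its genes did not move as one. Nanog, Klf4, Prdm14 and Tfcp2l1 are not in these lists, although they met both thresholds and were left out by symbol, so the counts leave out pluripotency genes with the same pattern. No member was among the 21 tested genes of the ERK feedback and immediate-early list. That list does not hold the members Rhob and Atf3, which other lists hold. Of its 21 genes, 17 were called higher at 4h than at 0h and 16 lower at rev than at 4h, the direction opposite to the members. Within that limit, no member was found among the lists of general pluripotency, Wnt targets, BMP and ID genes, imprinted genes, sterol synthesis, DNA methylation or cadherins. This holds for the listed genes only, since the lists are short. The BMP pathway genes Bmp7, Smad1 and Rgma and the imprinted genes Peg12 and Dio3 were members that these lists do not hold. The list of Notch genes held Jag1 and Jag2 among 12 tested. Of that list Jag2 and Notch3 were called lower and 0 higher at 4h, and Jag1, Notch1 and Notch2 were called higher and 0 lower at rev than at 4h. The list of PI3K, FOXO and insulin signalling held Foxo3, Foxo6 and Arrdc4 among 21 tested. At 4h Foxo3, Foxo6 and Pik3r1 were called lower and 3 genes higher, and at rev 5 were called higher, all 3 members among them, and 2 lower. Receptor tyrosine kinases and ephrins held 3 of 19 tested genes, with Epha4, Kit and the non-member Ephb4 called lower and 2 genes higher at 4h, and 4 higher and 1 lower at rev than at 4h. Per3, the 1 member among 15 tested circadian and nuclear receptor genes, had 7.09, 7.31, 11.5 and 14.3 CPM at 0h and 2.73, 3.27, 7.96 and 7.93 CPM at 4h.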

How the data were processed

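RNA counts per gene were deposited by the authors as 1 table for 16 libraries, and the values are whole-number counts that were not normalized. Per the submitters' processing notes, bcl2fastq 2.19.1, STAR 2.5.3a and the mm10 genome were used; the counting program, its strand setting and its annotation are not given in the sources used here. Groups, clones and library numbers were taken from the sample titles.

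CPM were computed outside 8 features with over 1% of all counts, and 0 columns of other samples were met. Tests used edgeR 4.0.16 in R 4.3.3 (quasi-likelihood F test, clone by group design, all 16 libraries) on 12742 genes left by its low-count filter, with Benjamini-Hochberg adjustment over all of them and calls at an adjusted p under 0.05. The code was tested on simulated counts. DESeq2 1.42.0 was an alternative, with other filters, scalings, thresholds and leaving out each library. Coordinates and exon overlap are from GENCODE M21 (GRCm38), and promoters from RefSeq (GRCm38.p6).

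Members, gene lists and tests were chosen with earlier results of these data known. Named genes were the 15 with the largest smaller-of-both difference, members of the gene lists, the 3 largest called per tested contrast and direction with at least 50 mean counts, and the 5 highest per kilobase. Role classes, the autophagy, fatty acid and Frizzled lists, the GC alternative and other genes named for their role were chosen after the values had been seen.
Some results on single genes are not reported here.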

Additional observations from a re-analysis of the deposited data

Results flagged for a closer look

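In groups of 4 libraries, 1 library stood apart from the other 3 by more than 0.829 of the group's range in 6 of 60 groups of named genes examined and in the summed share. For 4 independent values from 1 normal distribution, chance gives this in about 1 in 20 groups. Here each group joins 2 clones and the genes share the same libraries, so that rate need not hold. The gap as a share of the range was 0.94 for the summed share at 0h, where clone 4 library 2 was low. It was 0.904 for Mex3b and 0.938 for Rgma at 0h, with clone 4 library 2 low for Mex3b and clone 4 library 1 low for Rgma. A4galt at 0h gave 0.838, with clone 4 library 1 high, and A4galt at 4h 0.882, with clone 4 library 2 low. For Radil at 0h it was 0.833, with clone 8 library 2 high, and for Zcchc24 at rev 0.837, with clone 4 library 2 low.

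The clones differed by edgeR's interaction test in the change at 4h against 0h for 77 members, at rev against 4h for 137 and at 2h against 0h for 72.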

How the results depend on the processing

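The number of members was 172 with a pseudocount of 5, 719 with thresholds of 0.4, 124 with thresholds of 0.75, 188 with at least 800 counts and 79 with both thresholds in each clone; leaving out 1 library gave 324 to 746. The 2h against the mean of the other groups count of 37 became 11 at an adjusted p under 0.01 (2.64% of all genes), 71 with no filter on low counts (51 higher and 20 lower; 4.58% of a larger table of genes) and 5 with no clone covariate (1.73%), and 10 to 44 without 1 library. The 2h against 0h count of 72 became 30 at an adjusted p under 0.01 (7.23% of all genes) and 21 with no clone covariate (5.94%), and 42 to 86 without 1 library (42 without clone 4 library 1 at 0h, 43 without clone 8 library 2 at 2h). The clone differences became 41 (4h), 86 (rev) and 34 (2h) at an adjusted p under 0.01 (3.07%, 6.69% and 3.26% of all genes), and 46, 90 and 37 with DESeq2 (3.48%, 7.84% and 4.13%). Without 1 library they were 25 to 81, 63 to 143 and 32 to 87, and the difference in level 221 to 250. The causes of these shifts were not tested. Library numbers did not pair the samples: over 12 pairs the correlation of same-numbered deviations was -0.133 to 0.119, with 1 above 0.1. With the replicate block the counts were 25, 58, 67, 125, 70 and 192, in the order 2h against the mean, 2h against 0h, clone differences at 4h, rev and 2h, and level, against 6.15%, 14.4%, 4.98%, 12%, 7.27% and 27.4% of all genes. Genes with few counts limit the precision: 187 of 435 members had at least 50 mean counts at 0h.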
